A study of Bos taurus with 6 samples.

Results

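Fetal bovine liver was compared with fetal bovine forebrain across all 14179 genes of the deposited count table, using 4 of its 6 RNA-seq libraries, Liver 1 and Liver 2 against Forebrain 1 and Forebrain 2. The other 2 libraries are rumen, the forestomach. They entered only the filter on low counts, the scaling between libraries and the shared estimate of the spread between replicates. Every library was labelled as wild type (WT), male and from a fetus of 90 days, and the protocol names Holstein cows at a slaughterhouse as the source. It mentions 2 male fetuses among 4 pregnancies, so the 4 libraries can come from at most 2 fetuses, and which fetus gave which library is not given in the labels. The p-values below therefore measure only the spread between these libraries, which may be technical. No animal was treated and no gene was altered in either tissue.

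The fetal liver is a gland and a blood-forming organ at once. Its hepatocytes secrete the plasma proteins and start to build the pathways of nitrogen, sugar, fat and bile metabolism, while blood stem cells settle among them and give rise to red cells, platelets and white cells. The fetal forebrain at this stage holds dividing radial glia that line the ventricles, neurons that extend axons and assemble synapses, and the earliest oligodendrocyte precursors. In bulk tissue, fewer cells of a type and less RNA per cell cannot be told apart.

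Each level is a CPM value, a gene's share of its library multiplied by 1e6, after TMM scaling, which corrects for a few genes taking up much of a library. Pairs of values run from library 1 to library 2, and forebrain is given before liver unless the sentence names liver first. CPM values are not per gene length, which was not available, so levels are compared across libraries for 1 gene at a time, although the rules for naming genes used them to pick which to describe. Library totals ran from 10271024 to 18528958 counts, and 1 count was worth 0.0642 to 0.0813 CPM in these 4 libraries. The liver libraries differed strongly from each other. Over the 8041 genes with at least 10 CPM in a liver library, the log2 ratio of Liver 2 to Liver 1 had an SD of 1.07, against 0.34 over 7365 genes in the forebrain pair. Of these genes, 1180 (14.7%) were at least 2-fold higher in Liver 2 and 1135 (14.1%) in Liver 1, where the forebrain pair had 46 and 38.

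The tissue labels were checked against defining markers. All 8 hepatocyte markers and all 8 erythroid markers rose in liver, with summed levels of 222239 and 192030.4 CPM for hepatocytes and 147121 and 56886 CPM for erythroid cells, against sums of 102 and 136 CPM and of 459 and 496 CPM in forebrain. All 6 neuron markers and all 5 radial glia markers fell in liver, with neuron sums of 12586 and 12388 CPM in forebrain and 85.5 and 64.2 CPM in liver. TUBB3, DCX and SOX2 had no count in liver, and AHSG, AFP and SERPINA1 none in forebrain. Markers of pancreas summed to 0.298 and 0 CPM in liver. A wider list of pancreas genes summed to 45.2 and 34.2 CPM in forebrain and 17.8 and 99.4 CPM in liver. The intestine markers summed to 0.163 and 0.144 CPM in forebrain and 16.7 and 36.8 CPM in liver. Of these 3 markers, 1 was higher in liver and the others stayed under 1 CPM there. Among choroid plexus markers, TTR stood at 0.569 and 2.81 CPM in forebrain, KCNJ13 at 0.0813 and 0 CPM and FOLR1 at 0.0813 and 0.433 CPM. The markers of the telencephalon, the anterior part of the forebrain, were mostly low in the forebrain libraries, and their values are given with the patterning genes below. DCX did not pass when Forebrain 1 or Forebrain 2 was left out (adjusted p up to 0.05699 by edgeR).

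Of the 11478 genes with enough counts to test, 3377 were higher in liver (29.4%) and 2976 were lower (25.9%) at an adjusted p under 0.05 (quasi-likelihood test of edgeR, adjusted by Benjamini-Hochberg), and 5125 were neither. These shares are the background against which each gene list below is read, beside a median log2 fold change of 0.14 over all tested genes. With library totals alone in place of TMM scaling, the median log2 fold change shifted by -0.48, and the split became 2559 higher and 3946 lower. Leaving out a forebrain library lowered the counts to 1913 higher and 1835 lower without Forebrain 1 and to 1877 and 1764 without Forebrain 2. For the lists, a count that moved by more than 1.5 times when 1 library was left out, or with library totals alone, is followed in brackets by its value there, and the named genes that lost their call in such a fit are given at the end of the paragraph with each fit in which they did. Changes in a limma fit with weights per tissue, or in liver and forebrain alone, are mostly not marked. In each of those fits 29 of the tested genes picked by the rules no longer passed. List counts that moved by more than 1.5 times numbered 11 with limma and 8 in liver and forebrain alone. In all, 635 genes had counts in liver and none in forebrain, and 786 had counts in forebrain and none in liver, of which 244 and 347 passed the test. For those, a fold is a lower bound, taken against 3 counts summed over the libraries of the empty tissue, and a fitted fold change depends on the small count that edgeR adds. Every gene named below that passed had both liver values on the same side of both forebrain values, except MEG3 and PMCH. This follows largely from the choice of genes that passed. Such separation was also common at large, with 4858 genes above and 4597 below, of 12693 with counts in liver or forebrain. MEG3 did not pass when Forebrain 1, Forebrain 2, Liver 2, Rumen 1 or Rumen 2 was left out or with library totals alone (adjusted p up to 0.814 by edgeR). PMCH did not pass when Forebrain 2, Rumen 1 or Rumen 2 was left out (adjusted p up to 0.928 by edgeR).

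**Figure D1:**
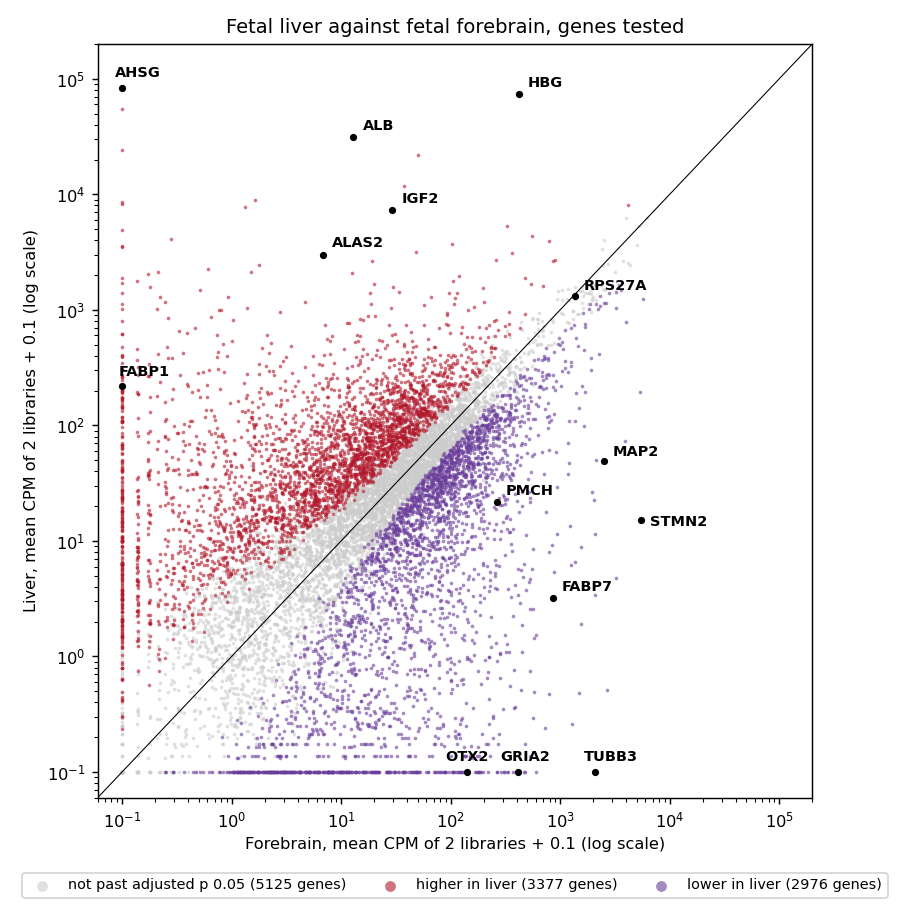
Mean CPM in liver (vertical axis) against mean CPM in forebrain (horizontal axis) for the 11478 genes tested, on log scales after adding 0.1, where red points passed the test as higher in liver (3377), purple points as lower (2976) and grey points did neither (5125). AHSG and FABP1 lie on the left edge with no forebrain count, and OTX2, GRIA2 and TUBB3 on the lower edge with no liver count.

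Secreted plasma proteins were far higher in liver. All 30 tested fetal plasma carriers and protease inhibitors were higher in liver, with a median log2 fold change of 13.79 as fitted and 12.27 with undetected genes at their bound. AHSG, or fetuin-A, the mineral-binding carrier of fetal plasma, stood at 0 and 0 CPM in forebrain and 98899.99 and 67412 CPM in liver. SERPINA1, or alpha-1-antitrypsin, which blocks neutrophil elastase, stood at 0 and 0 CPM in forebrain and 42895 and 65702 CPM in liver. ALB, the albumin of adult plasma, stood at 15.4 and 10.2 CPM in forebrain and 41199 and 21196 CPM in liver. Liver was above forebrain in every library for all 3, by at least 714851-fold for AHSG, at least 480704-fold for SERPINA1 and 2429-fold for ALB (log2 11.25, SE 0.72, adjusted p 9.35e-05 by edgeR). AHSG and ALB were higher in Liver 1, while SERPINA1 was higher in Liver 2. AFP, the albumin-like carrier of the fetus, stood at 0 and 0 CPM in forebrain and 27433 and 21354 CPM in liver, and its forebrain floor puts the difference at no less than 210712-fold. TF, the iron carrier transferrin, stood at 1.71 and 1.37 CPM in forebrain and 11935 and 6076 CPM in liver. The other genes with the largest fitted differences and no forebrain count were all secreted liver proteins too, namely FETUB, APOA2, ORM1, ITIH3, FGA, FGG, PLG, SPP2 and KNG1, with bounds from 9941-fold for KNG1, the kininogen precursor, to 75740.1-fold for FETUB, a relative of fetuin-A. Of the 2 untested list members, CP, the copper carrier ceruloplasmin, had 0.67000 and 0.642 CPM in liver and SERPINA3 had no count in either tissue, although SERPINA3-7 and SERPINA3-1, members of the expanded cattle cluster, stood at 323 and 295 and at 219.5 and 301 CPM in liver and 0 in forebrain. Reads of such near-identical copies can be split or lost in counting.

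Among apolipoproteins and their partners, 18 of 20 rose and 2 (1 without Forebrain 1 or Forebrain 2) fell (median 6.10 as fitted and 5.24 with undetected genes at their bound). APOA2 and APOA1, the main proteins of high-density lipoprotein, stood at 0 and 0 CPM in forebrain and 7610.3 and 8771 CPM in liver and at 85.1 and 121 against 3246 and 4157 CPM. APOE, which clears remnant particles and is made by glia as well, stood at 395 and 712 CPM in forebrain and 4303 and 4351 CPM in liver, 7.82-fold higher in liver. The members that fell were APOO, a protein of mitochondrial cristae despite its name, at 58.9 and 56.9 CPM in forebrain and 21.1 and 7.77 CPM in liver, and APOD, a lipocalin of glia and nerve, at 12.4 and 15.8 against 0 and 0.321 CPM. The tissues did not overlap for any of these genes. APOO did not pass when Forebrain 1 or Forebrain 2 was left out (adjusted p up to 0.06796 by edgeR).

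Coagulation and fibrinolysis genes followed, with 19 of 25 higher and 2 (0 without Forebrain 1, 1 without Forebrain 2 or Rumen 1 or Rumen 2) lower in liver (median 8.32). The fibrinogen chains led, with FGB at 1.06 and 1.37 CPM in forebrain and 6278 and 9189 CPM in liver, FGA at 0 and 0 against 2881 and 4117 CPM and FGG at 0 and 0 against 1939 and 1811 CPM. The 2 that fell were PLAT, tissue plasminogen activator, at 56.4 and 41.4 CPM in forebrain and 19.4 and 10.6 CPM in liver, and F3, tissue factor, at 19.8 and 14.9 against 4.62 and 9.25 CPM, both of which are made outside hepatocytes. Complement genes rose in 24 of 25 cases and fell in 0 (median 4.90). C3, the central complement component, stood at 9.19 and 17.2 CPM in forebrain and 544 and 517 CPM in liver. CFI, the protease that inactivates it, stood at 1.301 and 3.03 CPM in forebrain and 416 and 619 CPM in liver, and SERPING1, the C1 inhibitor, at 22.8 and 22.4 against 351 and 429 CPM. The only tested complement gene that did not pass was C7, at 0.407 and 0.794 CPM in forebrain and 1.04 and 1.99 CPM in liver. C8G, MASP1 and MASP2 passed although forebrain held 26.1 and 19.9, 52.9 and 36.1 and 41.2 and 36.2 CPM. In the serpin family as a whole, 17 of 24 rose. SERPIND1, or heparin cofactor II, at 0.244 and 0 CPM in forebrain and 1443 and 1151 CPM in liver, and SERPINF2, the plasmin inhibitor, at 0 and 0 against 858 and 1191 CPM, followed SERPINA1. The 2 serpins that fell are those of nerve, SERPINE2, or protease nexin-1, at 264 and 230.4 CPM in forebrain and 9.23 and 11.3 CPM in liver, and SERPINI1, or neuroserpin, at 236 and 219.6 against 5.88 and 3.02 CPM. PLAT did not pass when Forebrain 1 was left out (adjusted p 0.0524 by edgeR). F3 did not pass when Forebrain 1, Forebrain 2, Rumen 1 or Rumen 2 was left out (adjusted p up to 0.127 by edgeR). MASP1 did not pass when Forebrain 2 was left out or with library totals alone (adjusted p up to 0.122 by edgeR). MASP2 did not pass when Forebrain 1, Forebrain 2, Rumen 1 or Rumen 2 was left out or with library totals alone (adjusted p up to 0.139 by edgeR).

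**Figure D2:**
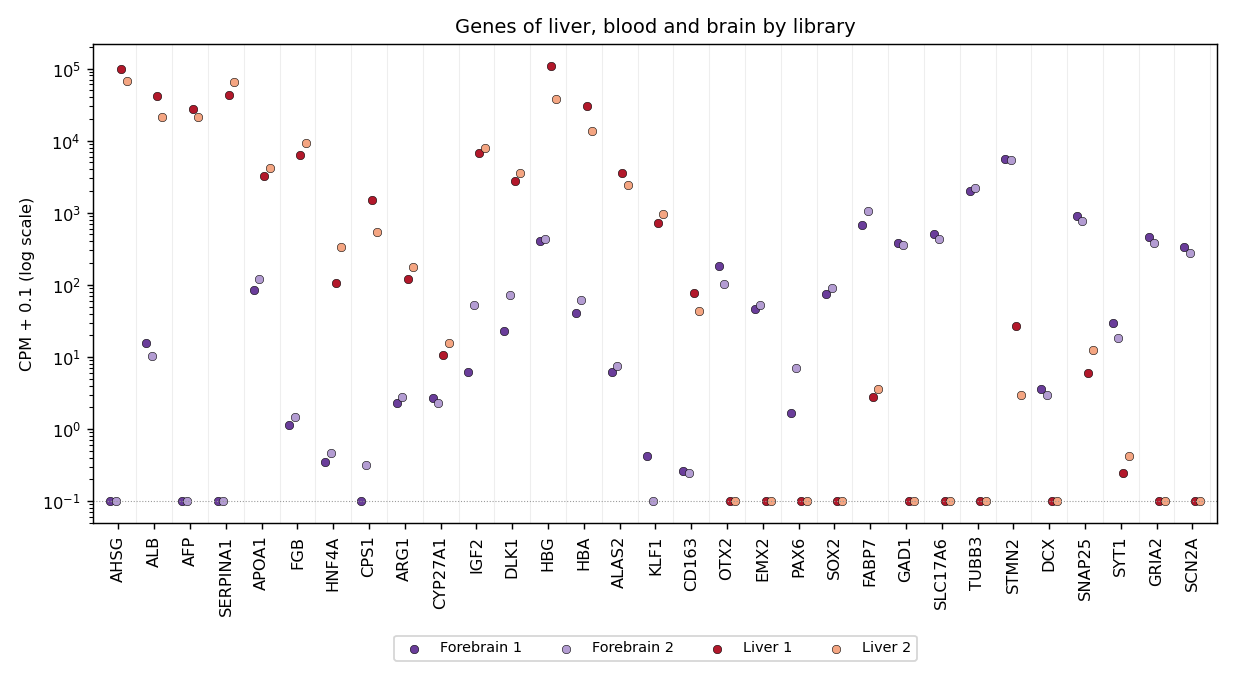
CPM plus 0.1 on a log scale (vertical axis) for genes of liver, blood and brain (horizontal axis), 1 point for each of the 4 libraries, with points on the dotted line having no count. For the liver and blood genes on the left both liver points lie above both forebrain points, and for the brain genes from OTX2 to SCN2A both lie below, while the liver points differ from each other for HBG, HNF4A and CPS1.

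Transcription factors of hepatocytes rose in 19 (11 without Forebrain 2) of 21 tested cases, and 0 fell (median 4.03). RXRA, the shared partner of many nuclear receptors, stood at 10.7 and 11.9 CPM in forebrain and 199 and 316 CPM in liver. HNF4A, the nuclear receptor at the head of the hepatocyte programme, stood at 0.244 and 0.361 CPM in forebrain and 107 and 329 CPM in liver. CEBPD, a leucine zipper factor of the acute-phase response, stood at 9.51 and 14.001 CPM in forebrain and 68.8 and 80.6 CPM in liver. All liver values lay above the forebrain values, with Liver 2 the higher library for each. XBP1, the factor of the unfolded protein response, stood at 198 and 193 CPM in forebrain and 245 and 248 CPM in liver and HNF4G at 3.25 and 1.73 against 5.51 and 6.49 CPM, and neither passed. Over all nuclear receptors, 18 (10 without Forebrain 1, 11 without Forebrain 2) of 32 rose and 6 fell. NR1H2 and NR1H3, the oxysterol receptors LXR beta and alpha, rose from 33.3 and 40.1 to 88.7 and 91.4 CPM and from 16.4 and 17.97 to 41.2 and 104.6 CPM. THRA, the thyroid hormone receptor of brain, fell from 409 and 437 to 22.04 and 13.4 CPM, NR2F1, or COUP-TFI, from 191 and 228 to 9.53 and 38.9 CPM, and RXRG, a retinoid X receptor, from 19.4 and 34.9 to 0.298 and 0 CPM. HOX genes, which mark position along the trunk and hindbrain and are silent in front of it, rose in 9 of 12 tested members and fell in none. HOXA5 stood at 0 and 0 CPM in forebrain and 20.8 and 33.7 CPM in liver. HOXA4 stood at 0 and 0 CPM in forebrain and 5.43 and 15.8 CPM in liver and HOXA9 at 0 and 0 against 7.15 and 12.3 CPM. Of the 9 that rose only HOXB2 and HOXB3 had any forebrain count, and HOXC4 passed at only 0.0744 and 0.193 CPM in liver. NR1H3 did not pass when Forebrain 1 or Forebrain 2 was left out (adjusted p up to 0.0687 by edgeR). HOXC4 did not pass when Forebrain 1, Forebrain 2, Liver 2, Rumen 1 or Rumen 2 was left out or with library totals alone (adjusted p up to 0.181 by edgeR).

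Nitrogen and amino acid metabolism was strongly represented in liver. Of 12 tested urea cycle and ammonia genes, 9 rose and 0 (1 without Liver 1 or Liver 2) fell (median 2.88). GLUD1, glutamate dehydrogenase, stood at 511 and 441 CPM in forebrain and 1465 and 2295 CPM in liver. CPS1, which makes carbamoyl phosphate at the entry of the urea cycle, stood at 0 and 0.217 CPM in forebrain and 1502 and 541 CPM in liver. ASS1, argininosuccinate synthase, stood at 43.1 and 59.5 CPM in forebrain and 323 and 202 CPM in liver. Liver was above forebrain in both libraries for all 3, but Liver 1 held more CPS1 and Liver 2 more GLUD1. Genes that break down amino acids rose in 24 of 33 cases and fell in 2 (1 without Forebrain 1 or Forebrain 2) (median 3.85). MAT1A, which makes S-adenosylmethionine, stood at 9.76 and 6.57 CPM in forebrain and 498 and 699 CPM in liver, and ALDH4A1, an enzyme of proline breakdown, at 24.6 and 22.9 against 494 and 578 CPM. FTCD, of histidine breakdown, stood at 0 and 0 CPM in forebrain and 93.4 and 857 CPM in liver. It was at least 4387-fold higher in liver, and its liver libraries differed from each other by 9.17 times. GCSH, a protein of the glycine cleavage system, fell from 241 and 259.7 to 146 and 100.002 CPM, and SDSL, a serine dehydratase-like protein, from 10.2 and 15.6 CPM to no count. GCSH did not pass when Forebrain 1 or Forebrain 2 was left out (adjusted p up to 0.0942 by edgeR).

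Sugar metabolism was split. Of 20 tested genes of gluconeogenesis, fructose and glycogen, 14 (6 without Forebrain 2, 8 without Forebrain 1) rose and 5 (3 without Forebrain 1 or Forebrain 2) fell (median 1.97). PC, pyruvate carboxylase, stood at 29.03 and 25.9 CPM in forebrain and 227 and 414 CPM in liver. PCK2, the mitochondrial form of PEP carboxykinase, stood at 5.29 and 5.196 CPM in forebrain and 139 and 154 CPM in liver. These were 11.7-fold and 27.9-fold higher in liver, with close values in the 2 liver libraries for PCK2. PCK1, the cytosolic carboxykinase, passed at only 3.05 and 5.07 CPM in liver, and G6PC, the phosphatase that releases free glucose, had 6.77 and 0.128 CPM and was not tested. The members that fell included UGP2, which makes UDP-glucose, at 171 and 151 CPM in forebrain and 73.3 and 61.3 CPM in liver, PYGB, the brain glycogen phosphorylase, at 89.5 and 78.4 against 43.4 and 23.5 CPM, and PGM1, phosphoglucomutase, at 66.5 and 58.6 against 31.3 and 39.8 CPM. KHK, the kinase that starts fructose use, stood at 41.5 and 49.003 CPM in forebrain and 1.41 and 5.202 CPM in liver. It is a textbook liver enzyme, and both liver libraries held less of it than either forebrain library, by 13.6-fold (adjusted p 0.00287 by edgeR). PCK1 did not pass when Forebrain 2 was left out (adjusted p 0.05999 by edgeR). PYGB did not pass when Forebrain 1 or Forebrain 2 was left out (adjusted p up to 0.0908 by edgeR). PGM1 did not pass when Forebrain 1, Forebrain 2, Rumen 1 or Rumen 2 was left out (adjusted p up to 0.201 by edgeR).

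Bile acid genes rose in 14 of 16 tested cases and fell in 0 (median 6.97 as fitted and 6.24 with undetected genes at their bound). SLC27A5, which activates bile acids before conjugation, stood at 8.38 and 8.66 CPM in forebrain and 93.9 and 313 CPM in liver. KLB, the co-receptor through which FGF19 restrains bile acid synthesis, stood at 26.8 and 22.2 CPM in forebrain and 149 and 178 CPM in liver. SLCO1B3, a carrier that takes up bile acids and drugs, stood at 0 and 0.0722 CPM in forebrain and 54.1 and 120.4 CPM in liver. CYP7A1, the rate-limiting enzyme of the classical bile acid pathway, had no count in either liver library, whose floor of 3 counts amounts to 0.103 CPM over the pair. CYP27A1, which opens the alternative pathway, stood at 2.602 and 2.17 CPM in forebrain and 10.6 and 15.7 CPM in liver, and CYP8B1, which makes cholic acid precursors, at 0.0813 and 0 against 5.36 and 38.1 CPM. The uptake carrier SLCO1B3 and the activating enzyme SLC27A5 were therefore far above forebrain in both liver libraries while CYP7A1 was not detectable at this depth. CYP8B1 did not pass when Forebrain 2 was left out (adjusted p 0.0507 by edgeR).

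Of 36 tested drug and steroid detoxification genes, 25 rose and 5 (3 without Forebrain 1 or Forebrain 2) fell (median 5.63 as fitted and 4.65 with undetected genes at their bound). ALDH2, which clears acetaldehyde, stood at 107 and 139 CPM in forebrain and 539 and 714 CPM in liver. DPYS, of pyrimidine breakdown, stood at 0.407 and 0.6495 CPM in forebrain and 305 and 293 CPM in liver. ALDH1L1, a folate enzyme used in brain as an astrocyte marker, stood at 2.76 and 1.95 CPM in forebrain and 103 and 442 CPM in liver. The members that fell were the glutathione transferases GSTA4, GSTM3 and GSTM1, the alcohol dehydrogenase ADH5 and the monooxygenase FMO5. GSTA4 changed most among them, from 296 and 317 to 15.04 and 32.8 CPM (12.8-fold). In the cytochrome P450 family, 12 (6 without Forebrain 2, 7 without Forebrain 1) of 24 rose and 3 (1 without Forebrain 1 or Forebrain 2, 5 with total counts only) fell. CYP4F2, CYP2D14 and CYP4A11 led, at 79.8 and 135, 71.5 and 135 and 37.2 and 96.9 CPM in liver and at most 1.79 CPM in forebrain. CYP3A4 had 0.447 and 0.385 CPM in liver and CYP2E1 0 and 2.06 CPM, both of them main drug-metabolising forms of postnatal liver. The P450s that fell were CYP51A1, of sterol synthesis, CYP46A1, which turns brain cholesterol into 24-hydroxycholesterol, at 33.7 and 26.8 CPM in forebrain and 0.596 and 0 CPM in liver, and CYP19A1, the aromatase, at 1.301 and 3.75 against 0.0744 and 0 CPM. Glutathione transferases rose in 10 (6 without Forebrain 1) of 17 cases and fell in 4 (2 without Forebrain 1 or Forebrain 2), and aldehyde dehydrogenases rose in 10 (6 without Forebrain 1 or Forebrain 2) of 15 and fell in 0 (1 without Liver 2 and with total counts only). GSTM1 and CYP51A1 did not pass when Forebrain 1, Forebrain 2, Rumen 1 or Rumen 2 was left out (adjusted p up to 0.201, for GSTM1, by edgeR). FMO5 and CYP19A1 did not pass when Forebrain 1 or Forebrain 2 was left out (adjusted p up to 0.218, for CYP19A1, by edgeR).

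Genes of fat metabolism went in both directions. Genes of fatty acid oxidation and ketone bodies rose in 22 (14 without Forebrain 1) of 29 cases and fell in 2 (0 without Forebrain 1 or Forebrain 2, 4 without Liver 2, 5 without Liver 1 and with total counts only) (median 1.54). ACADS, the short-chain acyl-CoA dehydrogenase, stood at 11.1 and 11.6 CPM in forebrain and 202 and 293 CPM in liver. ACAT1, the acetyl-CoA thiolase of ketone metabolism, stood at 47.6 and 51.2 CPM in forebrain and 229 and 247 CPM in liver, and ECHS1, enoyl-CoA hydratase, at 103 and 104 against 266 and 190.3 CPM. The members that fell, BDH2 and BDH1, carry the name hydroxybutyrate dehydrogenase, at 46.5 and 49.003 CPM in forebrain and 15.04 and 26.3 CPM in liver and at 5.04 and 5.85 against 1.27 and 0.771 CPM. FABP1, the liver fatty acid-binding protein, stood at 0 and 0 CPM in forebrain and 189 and 245 CPM in liver. Sterol and fatty acid synthesis went both ways, with 8 (3 without Forebrain 1, 4 without Forebrain 2, 15 without Liver 1) of 32 higher, 8 (3 without Forebrain 1 or Forebrain 2, 5 without Rumen 1 or Rumen 2) lower and a median of 0.21, or -0.27 with library totals alone. Both shares lay below those over all tested genes, 29.4% higher and 25.9% lower. HMGCS1, which makes the precursor of the sterol pathway, stood at 916 and 869 CPM in forebrain and 119 and 284 CPM in liver. CYP51A1, the lanosterol demethylase, stood at 248 and 227 CPM in forebrain and 69.6 and 140.4 CPM in liver. For both genes the forebrain libraries lay above both liver libraries, by 4.44-fold and 2.26-fold. The regulators SREBF2 and SREBF1 went the other way, at 85.5 and 73.1 CPM in forebrain and 264 and 312 CPM in liver and at 13.6 and 12.3 against 149 and 203 CPM, together with TM7SF2, a sterol reductase, at 77.4 and 96.9 against 126 and 266 CPM. In the peroxisome list, 9 (4 without Forebrain 1 or Forebrain 2) of 27 rose and 2 (4 with total counts only) fell, and the median of 0.70 became 0.21 with library totals alone. The share of peroxisome genes that rose was near the 29.4% over all tested genes. CAT, catalase, was the leading member, at 92.3 and 91.9 CPM in forebrain and 1147 and 651 CPM in liver, and PEX10, an import factor, differed mostly through Liver 2, at 31.8 and 31.8 against 43.03 and 264 CPM. ECHS1 did not pass when Forebrain 1 or Forebrain 2 was left out or with library totals alone (adjusted p up to 0.0741 by edgeR). BDH2 and BDH1 did not pass when Forebrain 1 or Forebrain 2 was left out (adjusted p up to 0.143, for BDH1, by edgeR). CYP51A1 did not pass when Forebrain 1, Forebrain 2, Rumen 1 or Rumen 2 was left out (adjusted p up to 0.123 by edgeR). TM7SF2 did not pass when Forebrain 1, Forebrain 2, Rumen 1 or Rumen 2 was left out or with library totals alone (adjusted p up to 0.187 by edgeR). PEX10 did not pass when Forebrain 1, Forebrain 2, Liver 2, Rumen 1 or Rumen 2 was left out or with library totals alone (adjusted p up to 0.164 by edgeR).

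Iron and haem genes formed another block. Of 19 tested genes of iron storage and uptake, 15 rose and 0 (1 with total counts only) fell (median 3.51). The ferritin chains FTH1 and FTL stood at 3708 and 4645 CPM in forebrain and 8291 and 7843 CPM in liver and at 754 and 980.2 against 2574 and 2689 CPM, and BLVRB, a biliverdin reductase of red cells, at 12.1 and 17.4 against 1093 and 585 CPM. HAMP, the iron hormone hepcidin, stood at 0 and 0 CPM in forebrain and 196 and 207 CPM in liver. TFR2, the iron sensor of hepatocytes, stood at 4.07 and 2.67 CPM in forebrain and 416 and 561 CPM in liver, with the liver libraries close together. TFRC, the transferrin receptor by which red cell precursors take up iron, stood at 1.87 and 1.52 CPM in forebrain and 528 and 28.5 CPM in liver, so that Liver 1 held 18.5 times the level of Liver 2, and both were above forebrain. Haem synthesis genes rose in 13 of 15 cases and fell in 0 (median 3.36). ALAS2, the red cell form of the opening enzyme of the pathway, stood at 6.098 and 7.29 CPM in forebrain and 3599.9 and 2411 CPM in liver, 448-fold higher in liver (log2 8.81, SE 0.38, adjusted p 6.06e-05 by edgeR). SLC25A37, or mitoferrin-1, which carries iron into mitochondria, stood at 23.3 and 15.01 CPM in forebrain and 2148 and 3164 CPM in liver, and ALAD, the enzyme after ALAS2, at 18.3 and 18.4 against 1042 and 1778 CPM. FTH1 did not pass when Forebrain 1, Forebrain 2, Rumen 1 or Rumen 2 was left out or with library totals alone (adjusted p up to 0.129 by edgeR).

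Globin genes were far higher in liver. HBG, which codes for a fetal beta-type chain, stood at 412 and 427 CPM in forebrain and 109165 and 37468 CPM in liver. HBA, the alpha chain, stood at 40.1 and 60.7 CPM in forebrain and 29823 and 13703 CPM in liver, and HBM, an alpha-type globin, at 1.46 and 1.37 against 2430.03 and 1819.8 CPM. All liver values lay far above forebrain, and Liver 1 held 2.91 times the HBG and 2.18 times the HBA of Liver 2. The 11 genes of the list, globins and AHSP, the chaperone of free alpha globin, together made up 142876 and 53861 CPM in liver and 520.4 and 548 CPM in forebrain, and 8 of 10 tested rose. The 2 (1 without Forebrain 1 or Forebrain 2) that fell are not red cell globins, CYGB, or cytoglobin, at 57.9 and 48.2 CPM in forebrain and 2.75 and 3.66 CPM in liver, and NGB, or neuroglobin, at 1.79 and 2.598 against 0 and 0 CPM. Globin genes are near copies of each other, so the split between them depends on how shared reads were counted. Erythroid factors and red cell membrane genes rose in all 24 tested cases (median 8.33). PRDX2, a peroxidase of red cells that neurons also use, stood at 482 and 608 CPM in forebrain and 1707 and 1635 CPM in liver. SLC4A1, the anion exchanger band 3, stood at 0.163 and 0 CPM in forebrain and 2608 and 529.6 CPM in liver. Both were above forebrain in both liver libraries, and SLC4A1 was far higher in Liver 1. KLF1, the erythroid switch factor, stood at 0.325 and 0 CPM in forebrain and 724 and 974 CPM in liver and GATA1 at 0 and 0.144 against 302 and 232 CPM. NGB did not pass when Forebrain 1 or Forebrain 2 was left out (adjusted p up to 0.0812 by edgeR).

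Genes of other blood lineages rose as well. Megakaryocyte and platelet genes rose in 13 of 14 cases and fell in 0 (median 7.23 as fitted and 6.85 with undetected genes at their bound). PF4, platelet factor 4, stood at 0.976 and 0.866 CPM in forebrain and 1086 and 556 CPM in liver. THBS1, thrombospondin 1, stood at 7.97 and 5.99 CPM in forebrain and 1132 and 342 CPM in liver, and ITGB3, the beta subunit of the platelet fibrinogen receptor, at 2.36 and 1.804 against 616 and 235 CPM. Liver 1 was the higher liver library in each. Granulocyte and mast cell genes rose in 9 (4 without Forebrain 1 or Forebrain 2) of 15 cases. PGLYRP1, S100A9 and S100A12, proteins of neutrophil granules and cytosol, stood at 63.8 and 18.4, 47.3 and 11.6 and 31.8 and 9.12 CPM in liver and under 1 CPM in forebrain. The 1 (3 without Liver 1) that fell was KIT, the stem cell factor receptor, at 206 and 141 CPM in forebrain and 30.001 and 15.2 CPM in liver, a gene that neurons express too. Macrophage and Kupffer cell genes rose in 17 (11 without Forebrain 1) of 23 and fell in 0 (median 2.94). SLC40A1, the iron exporter ferroportin, stood at 25.5 and 24.8 CPM in forebrain and 508 and 424 CPM in liver. HMOX1, which opens the haem ring, stood at 3.58 and 2.38 CPM in forebrain and 237 and 247 CPM in liver, and C1QC, a chain of complement C1q, at 6.75 and 11.98 against 305 and 100.002 CPM. CD5L, a defining product of Kupffer cells, stood at 0 and 0 CPM in forebrain and 47.3 and 4.303 CPM in liver, with most of it in Liver 1. Microglia, the macrophages of brain, share many of these genes, and 5 (8 without Liver 2) of 15 microglia genes rose in liver, among them C1QA, C1QB, C1QC and OLFML3. CX3CR1, the fractalkine receptor of microglia, was the only one that fell, from 12.1 and 20.6 to 0.819 and 1.73 CPM. The share of microglia genes that rose was near the 29.4% over all tested genes. Among lymphocyte and progenitor genes 7 (3 without Forebrain 1, 12 without Liver 2) of 16 rose and 4 fell. CD34, of blood progenitors and vessels, stood at 10.1 and 12.99 CPM in forebrain and 183 and 266 CPM in liver. SPN stood at 0.325 and 0.433 CPM in forebrain and 51.9 and 23.9 CPM in liver and MYB, a factor of progenitor cells, at 3.496 and 4.55 against 38.1 and 26.98 CPM. Besides KIT, the genes that fell were EBF1, CD247 and LCK, at 68.7 and 49.2, 34.2 and 36.4 and 11.1 and 12.1 CPM in forebrain. The T cell receptor genes CD3D, CD3E and CD3G stayed under 3 CPM in every library. Interleukins and their receptors rose in 16 of 26 tested cases. IL13RA1, IL10RB and IL27RA led, at 85.7 and 87.5, 46.2 and 78.4 and 49.6 and 59.9 CPM in liver. IL34, a ligand that maintains microglia, was the 1 (0 without Forebrain 1 or Forebrain 2, 2 without Liver 2) that fell, at 8.29 and 7.72 CPM in forebrain and 0.893 and 0.899 CPM in liver. LCK and IL34 did not pass when Forebrain 1 or Forebrain 2 was left out (adjusted p up to 0.104, for LCK, by edgeR). IL13RA1 did not pass when Forebrain 1 or Forebrain 2 was left out or with library totals alone (adjusted p up to 0.258 by edgeR).

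Vessels and supporting cells were also distinguished. Endothelial genes rose in 13 of 25 cases and fell in 1 (2 without Liver 1 and with total counts only) (median 1.78). SLC2A1, a glucose carrier that red cells and vessels share, stood at 88.96 and 106 CPM in forebrain and 1599 and 1202 CPM in liver. STAB2, the scavenger receptor of liver sinusoids, stood at 0.651 and 0.6495 CPM in forebrain and 339 and 275 CPM in liver, and ENG, endoglin, at 26.3 and 46.98 against 301 and 246 CPM. MFSD2A, the lipid carrier of the blood-brain barrier, fell from 17.3 and 18.5 to 0.968 and 0.899 CPM. PECAM1 and CDH5, which all endothelium carries, stood at 19.4 and 27.1 CPM in forebrain and 71.5 and 32.7 CPM in liver and at 3.33 and 4.55 against 53.8 and 2.44 CPM and did not pass. Stellate cell and fibroblast genes rose in 14 of 25 cases and fell in 2 (1 without Forebrain 1, 4 without Liver 2, 5 without Liver 1), with VTN, or vitronectin, a plasma protein that hepatocytes make too, at 0 and 0.144 CPM in forebrain and 2048 and 2043 CPM in liver, COL3A1, a fibrillar collagen, at 35.9 and 53.3 against 580.2 and 484 CPM and POSTN, periostin, at 3.33 and 4.55 against 246 and 240.3 CPM. RELN, or reelin, which guides migrating neurons and is made by stellate cells as well, stood at 266 and 244 CPM in forebrain and 116 and 130.3 CPM in liver, and PDGFRA at 91.2 and 92.2 against 6.33 and 4.17 CPM, both lower in liver. Bile duct genes rose in 9 (5 without Forebrain 2) of 14 cases, led by ANXA4 at 6.02 and 7.51 CPM in forebrain and 132 and 285 CPM in liver and the keratins KRT8 at 0 and 0.289 against 150.1 and 166 CPM and KRT18 at 25.7 and 13.4 against 89.6 and 206 CPM, which hepatocytes share. JAG1, KRT19, SPP1 and SOX4, of which KRT19 and JAG1 mark forming ducts, were lower in liver, with KRT19 at 44.6 and 25.7 CPM in forebrain and 11.9 and 16.4 CPM in liver and JAG1 at 87.2 and 68.99 against 22.9 and 41.8 CPM. RELN and KRT19 did not pass when Forebrain 1 was left out (adjusted p up to 0.1297, for KRT19, by edgeR). JAG1 did not pass when Forebrain 1 or Forebrain 2 was left out (adjusted p up to 0.108 by edgeR). SPP1 did not pass when Forebrain 2 was left out (adjusted p 0.0659 by edgeR).

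The growth axis of the fetus was prominent in liver. Of 20 tested growth hormone and IGF genes, 13 rose and 4 (1 without Forebrain 1 or Forebrain 2, 2 without Rumen 1 or Rumen 2) fell (median 3.77). H19, an imprinted RNA beside IGF2, stood at 19.8 and 54.6 CPM in forebrain and 8121 and 15574 CPM in liver. IGF2, the main fetal growth factor, stood at 6.18 and 52.4 CPM in forebrain and 6681 and 7845 CPM in liver. IGFBP1, a binding protein secreted by hepatocytes, stood at 0.894 and 0.505 CPM in forebrain and 744 and 1256 CPM in liver. Both liver libraries lay above forebrain for all 3, and Forebrain 2 was above Forebrain 1 for H19 and IGF2. GHR, the growth hormone receptor, stood at 1.06 and 0.577 CPM in forebrain and 5.73 and 0.963 CPM in liver and IGF1 at 0.732 and 0.0722 against 1.86 and 0 CPM, and neither passed. The members that fell were IGFBP5, IGFBP6, IGFBP7 and STC1, with IGFBP7 at 98.1 and 131 CPM in forebrain and 69.7 and 64.5 CPM in liver. Imprinted genes rose in 11 of 24 cases and fell in 5 (median 0.92). PEG3, a zinc finger gene, stood at 737 and 836 CPM in forebrain and 2515 and 5434 CPM in liver, and DLK1, a NOTCH-like ligand of fetal liver, at 22.8 and 72.8 against 2754 and 3609 CPM. DIRAS3, a RAS-like gene, stood at 993 and 1568 CPM in forebrain and 0 and 0.321 CPM in liver, the steepest fall of the list. SNRPN and NDN, of the region tied to Prader-Willi syndrome in people, stood at 458 and 545 CPM in forebrain and 42.7 and 72.1 CPM in liver and at 177 and 191 against 25.98 and 32.6 CPM, MEST at 206 and 285 against 52.4 and 52.3 CPM and NAP1L5 at 202 and 177 against 31.8 and 21.1 CPM. MEG3, a maternally expressed long RNA, stood at 389 and 343 CPM in forebrain and 381 and 5769 CPM in liver. It passed with an adjusted p of 0.0482 in edgeR's test although Liver 1 lay between the forebrain values, so the difference rests on Liver 2 alone. PEG10, NNAT and GNAS were high in all 4 libraries and did not pass, with GNAS, a G protein subunit, at 3813 and 4869.9 CPM in forebrain and 1924 and 2978 CPM in liver. Among retinoid, vitamin and hormone genes 10 of 17 rose and 4 (2 without Forebrain 2) fell. RBP4, the plasma carrier of retinol, stood at 77.4 and 134 CPM in forebrain and 2183 and 1365 CPM in liver, and THRA, CRABP1, STRA6 and DIO3 were lower in liver, with CRABP1, a retinoic acid-binding protein of brain, at 258 and 255 against 9.23 and 2.95 CPM. IGFBP6 and STRA6 did not pass when Forebrain 1 or Forebrain 2 was left out (adjusted p up to 0.182, for STRA6, by edgeR). IGFBP7 and STC1 did not pass when Forebrain 1, Forebrain 2, Rumen 1 or Rumen 2 was left out (adjusted p up to 0.2296, for IGFBP7, by edgeR). MEG3 did not pass when Forebrain 1, Forebrain 2, Liver 2, Rumen 1 or Rumen 2 was left out or with library totals alone (adjusted p up to 0.814 by edgeR). DIO3 did not pass when Forebrain 2 was left out (adjusted p 0.1999 by edgeR).

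Genes of cell division were higher in liver almost throughout. Replication and mitosis genes rose in 40 of 42 tested cases and fell in 0 (1 with total counts only) (median 4.13). RRM2, the regulated subunit of ribonucleotide reductase, stood at 29.4 and 31.9 CPM in forebrain and 694 and 532 CPM in liver. CENPF, a kinetochore protein, stood at 14.9 and 14.6 CPM in forebrain and 617 and 564 CPM in liver. MCM7, of the replicative helicase, stood at 43.3 and 45.97 CPM in forebrain and 524 and 330.5 CPM in liver. The liver libraries were above both forebrain libraries for each, by 20.000-fold, 40.1-fold and 9.56-fold. Only GINS1 and CCNE2 did not pass, with GINS1 at 54.9 and 52.03 CPM in forebrain and 58.7 and 45.7 CPM in liver and CCNE2 at 37.4 and 32.9 against 28.4 and 30.3 CPM. Histone genes rose in 12 of 20 tested cases, led by H2AX at 51.3 and 56.3 CPM in forebrain and 182 and 219 CPM in liver, HIST1H1E at 1.22 and 1.23 against 205 and 55.04 CPM and H1-3 at 3.25 and 1.95 against 85.7 and 100.3 CPM, and H3-5 was the 1 (0 without Forebrain 1 or Forebrain 2 or Liver 2, 2 with total counts only) that fell. Kinesins went both ways. Of 25 tested, 13 rose and 8 fell. KIFC1 and KIF22, motors of the mitotic spindle, stood at 7.97 and 6.35 CPM in forebrain and 177 and 334 CPM in liver and at 11.1 and 16.7 against 232 and 259 CPM, and KIF1C, a transport motor, at 36.3 and 33.6 against 153 and 209 CPM. KIF21A, KIF3C and KIF3B, transport motors of axons and cilia, stood at 276 and 290.1 CPM in forebrain and 10.2 and 30.6 CPM in liver, at 121 and 102 against 4.24 and 3.21 CPM and at 68.2 and 64.2 against 32.1 and 43.1 CPM. KIF5C, a motor of neurons, had 24.5 and 19.6 CPM in forebrain and no liver count. H3-5 did not pass when Forebrain 1, Liver 1 or Liver 2 was left out (adjusted p up to 0.169 by edgeR). KIF3B did not pass when Forebrain 1, Forebrain 2, Rumen 1 or Rumen 2 was left out (adjusted p up to 0.167 by edgeR). H3-5 was removed by the filter on low counts when Forebrain 2 was left out.

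General cell machinery differed by smaller amounts, and the size of these differences and the number of calls depended on scaling. Chaperones of the secretory pathway rose in 23 (12 without Forebrain 2, 13 without Forebrain 1, 15 with total counts only) of 49 cases and fell in 2 (4 without Liver 1, 6 without Liver 2, 7 with total counts only), with a median of 0.67 that became 0.18 with library totals alone. P4HB, the disulfide isomerase that also serves collagen, stood at 203 and 193 CPM in forebrain and 1524 and 1545 CPM in liver. CALR, a lectin chaperone, stood at 483 and 478 CPM in forebrain and 1079 and 767 CPM in liver, and SSR4, of the translocon, at 260.1 and 363 against 526 and 659.9 CPM. SRP14 and SEC11C, of the signal recognition particle and the signal peptidase, stood at 219 and 207 CPM in forebrain and 58.7 and 48.2 CPM in liver and at 137 and 179 against 31.4 and 57.7 CPM and fell. HSPA5 and HSP90B1, the main folding chaperones of the endoplasmic reticulum, stood at 569.7 and 555 CPM in forebrain and 725 and 977 CPM in liver and at 955 and 896 against 1247 and 1249 CPM and did not pass. CALR and SSR4 did not pass when Forebrain 1, Forebrain 2, Rumen 1 or Rumen 2 was left out or with library totals alone (adjusted p up to 0.175, for SSR4, by edgeR).

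Subunits of respiratory complex I fell in 26 (12 without Forebrain 2, 16 without Forebrain 1) of 46 cases and rose in 0 (1 without Liver 1, 3 without Liver 2), with a median of -0.86 and of -1.36 with library totals alone. NDUFA4, NDUFB8 and NDUFS5 stood at 512 and 514 CPM in forebrain and 170.4 and 114 CPM in liver, at 335 and 375 against 134 and 89.02 CPM and at 265 and 343 against 94.1 and 122 CPM. In ATP synthase 9 (5 without Forebrain 2, 14 without Liver 1, 15 with total counts only) of 18 fell, and the 1 (0 without Forebrain 1 or Forebrain 2 or Rumen 1 or Rumen 2 and with total counts only) that rose was ATP5IF1, its inhibitor, at 240.4 and 303 CPM in forebrain and 889.8 and 436 CPM in liver. In complexes II to IV 9 (3 without Forebrain 2, 16 with total counts only, 17 without Liver 1) of 26 fell and 3 (5 without Liver 2) rose. The latter were SDHA and SDHD, of succinate dehydrogenase, and COX8B. Cytosolic ribosomal protein genes fell in 24 (2 without Forebrain 2, 12 without Forebrain 1 or Rumen 1 or Rumen 2, 41 without Liver 2, 51 with total counts only) of 81 cases, beside 25.9% over all genes, with a median of -0.49, or -0.97 with library totals alone. RPL31 and RPS3A stood at 2825 and 3582 CPM in forebrain and 1067 and 1777 CPM in liver and at 2781 and 3205 against 1609 and 1596 CPM, and RPS27L, a p53 target, was the 1 (0 without Forebrain 1, 2 without Liver 2, 5 without Liver 1) that rose. Mitochondrial ribosomal protein genes fell in 20 (5 without Forebrain 1 or Forebrain 2, 10 without Rumen 1 or Rumen 2, 36 without Liver 1, 42 with total counts only) of 76 and rose in 4 (0 without Forebrain 1, 1 without Forebrain 2, 2 with total counts only, 7 without Liver 1, 14 without Liver 2), with a median of -0.44, or -0.93 with library totals alone. The share of these genes that fell was close to the 25.9% over all tested genes. MRPS6 fell, at 188 and 225 CPM in forebrain and 76.3 and 41.6 CPM in liver, and MRPL14 rose, at 60.5 and 67.3 against 110.1 and 96.98 CPM. Proteasome genes rose in 5 (2 without Forebrain 1 or Forebrain 2, 3 with total counts only, 9 without Liver 2) and fell in 5 (1 without Forebrain 1 or Forebrain 2, 3 without Rumen 1 or Rumen 2, 20 with total counts only, 21 without Liver 1) of 45, below the background in both directions, with a median of -0.13, or -0.62 with library totals alone. PSMB4, of the catalytic core, stood at 197 and 214 CPM in forebrain and 129 and 96.9 CPM in liver, and PSME4, an activator, at 63.3 and 49.7 against 191 and 209 CPM. Genes of cilia, the intraflagellar transport and axoneme set, fell in 22 (8 without Forebrain 2, 9 without Forebrain 1) of 34 cases and rose in 0 (1 without Liver 1) (median -1.59, and -2.08 with library totals alone), led by CFAP36 at 508 and 577 CPM in forebrain and 38.2 and 40.01 CPM in liver, CFAP298 at 113 and 129 against 33.7 and 42.9 CPM and IFT20 at 113 and 111 against 52.2 and 62.6 CPM. ATP5IF1 and MRPL14 did not pass when Forebrain 1, Forebrain 2, Rumen 1 or Rumen 2 was left out or with library totals alone (adjusted p up to 0.448, for MRPL14, by edgeR). SDHD did not pass when Forebrain 1 or Forebrain 2 was left out or with library totals alone (adjusted p up to 0.251 by edgeR). RPL31, RPS3A and PSMB4 did not pass when Forebrain 1, Forebrain 2, Rumen 1 or Rumen 2 was left out (adjusted p up to 0.159, for PSMB4, by edgeR). RPS27L did not pass when Forebrain 1 was left out (adjusted p 0.0661 by edgeR). IFT20 did not pass when Forebrain 1 or Forebrain 2 was left out (adjusted p up to 0.0818 by edgeR).

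**Figure D3:**
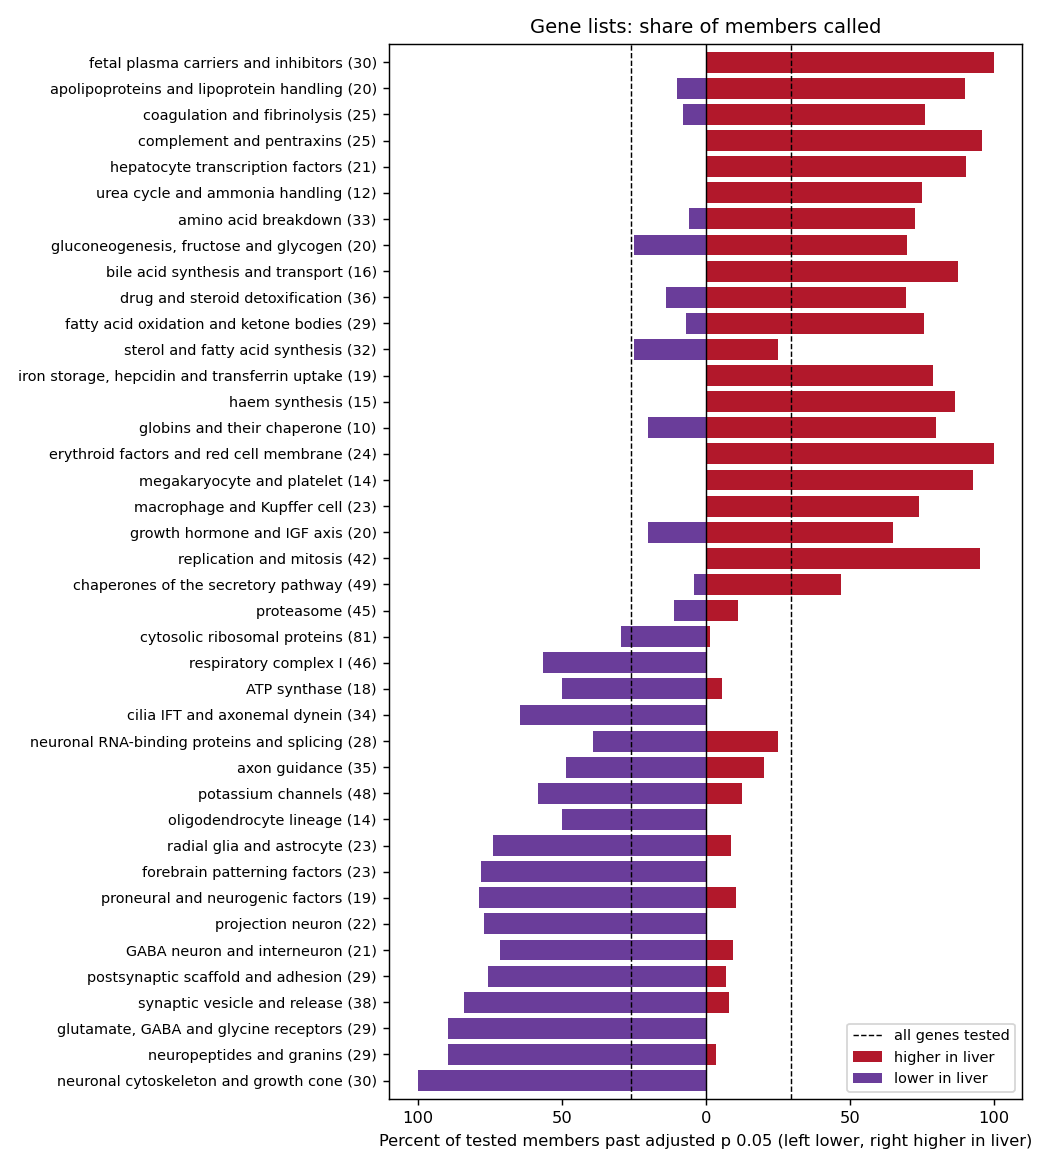
Percent of the tested members of each gene list (number tested in brackets) that passed as higher in liver (red, to the right) or lower in liver (purple, to the left), with dashed lines at the shares over all genes tested, 29.4% and 25.9%. Lists of secreted proteins, metabolism and blood extend to the right, lists of neurons and synapses to the left, and ribosomal and proteasome genes stay near or inside the dashed lines.

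Patterning factors of the forebrain fell in liver in 18 (11 without Forebrain 2) of 23 tested cases and rose in 0 (2 without Liver 1) (median -9.03 as fitted and -6.45 with undetected genes at their bound). With limma and weights per tissue, which let the spread differ between tissues, 9 passed as lower. NR2F1 stood at 191 and 228 CPM in forebrain. OTX2, which specifies fore- and midbrain, stood at 182 and 102 CPM in forebrain and 0 and 0 CPM in liver. EMX2, a homeobox gene of the cortex and nearby brain, stood at 45.8 and 52.1 CPM in forebrain and 0 and 0 CPM in liver. The forebrain libraries did not carry all genes of the label's region. Of the 5 telencephalon markers read here EMX1 stood at 0.0813 and 0.144 CPM and TBR1, of early cortical neurons, at 0.0813 and 1.01 CPM. DLX1 and DLX2, of the ventral telencephalon, stood at 2.36 and 19.6 and at 0.163 and 2.45 CPM, and EMX2 was the only one of the 5 above 20 CPM in both. Of genes best known from the diencephalon and midbrain, chosen here after their values were seen, BARHL1 stood at 38.3 and 38.5 CPM, LHX9 at 37.5 and 22.9 CPM, IRX5 at 48.1 and 26.4 CPM and SLC17A6, the vesicular glutamate carrier of subcortical neurons, at 505 and 431 CPM. HOX genes of hindbrain and cord were at or near 0, with HOXA2 and HOXB4 without a count. HOXA2 did not pass when Forebrain 1 or Forebrain 2 was left out (adjusted p up to 0.0896 by edgeR).

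The forebrain libraries also differed from each other in regional genes, chosen here after their values were seen. NKX2-1, a factor of the hypothalamus and ventral forebrain, stood at 3.903 and 68.6 CPM. PMCH and HCRT, peptide genes of lateral hypothalamic neurons, stood at 20.3 and 504 and at 1.54 and 49.9 CPM. SIX3 and FEZF2, factors of the anterior forebrain, stood at 6.42 and 29.2 and at 0.894 and 10.7 CPM. All 5 were higher in Forebrain 2, as was OTP, of the hypothalamus, at 11.5 and 32.2 CPM. ZIC2 went the other way, at 37.4 and 7.79 CPM, and so did OTX2, IRX5 and LHX9. PMCH also had 24.2 and 18.7 CPM in liver, close to its level in Forebrain 1, so its fall in liver rests on Forebrain 2 alone. This comparison has 1 library on each side and no replicate check. NKX2-1, HCRT and SIX3 did not pass when Forebrain 2 was left out (adjusted p up to 0.331, for HCRT, by edgeR). PMCH did not pass when Forebrain 2, Rumen 1 or Rumen 2 was left out (adjusted p up to 0.928 by edgeR). ZIC2 did not pass when Forebrain 1 was left out (adjusted p 0.132 by edgeR). FEZF2 was removed by the filter on low counts when Forebrain 2 was left out.

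**Figure D4:**
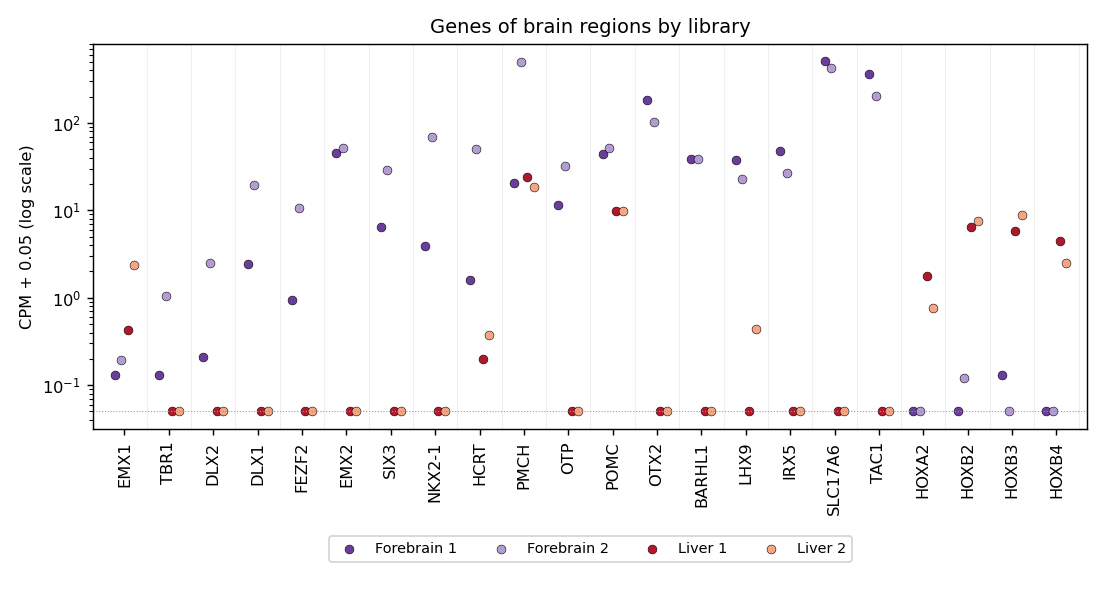
CPM plus 0.05 on a log scale (vertical axis) for genes that mark brain regions (horizontal axis), 1 point for each of the 4 libraries, with points on the dotted line having no count. Forebrain 2 lies above Forebrain 1 from TBR1 to OTP, most of all for NKX2-1, HCRT and PMCH, and the HOX genes on the right have counts in liver and hardly any in forebrain.

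Genes of neural progenitors and glia were low in liver. Proneural and neurogenic factors fell in 15 of 19 cases and rose in 2 (1 without Forebrain 1 or Forebrain 2) (median -6.44 as fitted and -4.73 with undetected genes at their bound). OLIG1, of oligodendrocyte precursors, stood at 156 and 203 CPM in forebrain and 0 and 0 CPM in liver. MYT1L, which keeps neurons from other fates, stood at 149 and 126 CPM in forebrain and 0.596 and 0 CPM in liver and TCF12, a widely used partner of proneural factors, at 104 and 93.5 against 48.6 and 25.4 CPM. The 2 that rose were ID1, an inhibitor of such factors, at 22.2 and 28.9 CPM in forebrain and 124 and 149.5 CPM in liver, and HEYL, a NOTCH target, at 7.97 and 10.2 against 28.7 and 22.4 CPM. Radial glia and astrocyte genes fell in 17 of 23 and rose in 2 (1 without Forebrain 1 or Forebrain 2, 4 without Liver 2) (median -4.91). FABP7, the brain lipid-binding protein of radial glia, stood at 673 and 1049 CPM in forebrain and 2.68 and 3.53 CPM in liver, 276-fold lower in liver (log2 -8.11, SE 0.39, adjusted p 6.06e-05 by edgeR). NCAN, or neurocan, stood at 879 and 705 CPM in forebrain and 0.298 and 0.4496 CPM in liver and PTPRZ1, a receptor phosphatase, at 549 and 522 against 3.35 and 1.61 CPM. AQP4, the water channel of astrocytes, and BCAN, or brevican, had 336 and 315 and 295 and 318 CPM in forebrain and no liver count, at least 3141-fold and 2970.4-fold lower. The members that rose were ALDH1L1 and LIFR, the receptor of leukaemia inhibitory factor, at 0.569 and 1.01 CPM in forebrain and 9.31 and 5.01 CPM in liver. CLU and SPARC, secreted proteins that both tissues make, stood at 622 and 652 CPM in forebrain and 1003 and 860.1 CPM in liver and at 358 and 429 against 424 and 222 CPM and did not pass. Oligodendrocyte genes fell in 7 (4 without Forebrain 2, 11 without Liver 1) of 14 cases, with PDGFRA at 91.2 and 92.2 CPM in forebrain, while MBP, a main myelin protein, stood at 60.3 and 97.4 CPM in forebrain and 38.7 and 4.303 CPM in liver and did not pass. In the list for choroid plexus and meninges 8 of 12 rose in liver. These include IGF2, TTR and ENPP2, which liver makes itself, and OTX2 and SLC6A13 were the 2 (1 without Forebrain 1 or Forebrain 2) that fell. TCF12, HEYL, LIFR and SLC6A13 did not pass when Forebrain 1 or Forebrain 2 was left out (adjusted p up to 0.144, for SLC6A13, by edgeR). ENPP2 did not pass when Forebrain 1, Forebrain 2, Liver 2, Rumen 1 or Rumen 2 was left out or with library totals alone (adjusted p up to 0.189 by edgeR).

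Genes of the neuronal cytoskeleton fell together. All 30 tested genes of the neuronal cytoskeleton and growth cone were lower in liver (median -8.07 as fitted and -7.73 with undetected genes at their bound). STMN2, a microtubule destabiliser of growing axons, stood at 5639 and 5340.1 CPM in forebrain and 27.2 and 2.89 CPM in liver. STMN1, its relative in neurons and dividing cells, stood at 4789 and 5889 CPM in forebrain and 199 and 193 CPM in liver. TUBA1A, the main alpha tubulin of young neurons, stood at 3756 and 3996 CPM in forebrain and 115 and 31.6 CPM in liver. All forebrain values lay above all liver values, by 366-fold, 27.3-fold and 52.8-fold, and the forebrain pair was close in each. TUBB3, the beta tubulin of neurons, had 1976 and 2199 CPM in forebrain and no liver count, which bounds the fold at 20245 or more. MAP1B and MAP2, microtubule proteins of axons and dendrites, stood at 3237 and 3203 CPM in forebrain and 5.81 and 3.597 CPM in liver and at 2625 and 2383 against 49.4 and 48.2 CPM. ACTG1 and TMSB10, cytoskeletal genes that most cells use, fell less, at 5452 and 5979 CPM in forebrain and 1517 and 943 CPM in liver and at 3732 and 4319.9 against 953 and 607 CPM. EEF1A2, the elongation factor of neurons and muscle, fell from 2314 and 3069.96 to 0.372 and 0.4496 CPM. Actin and tubulin genes have near copies, and counts between them may be shared. Other genes without a liver count and with the largest fitted differences were GNG4, STMN4, GAD1, ELAVL4, SCN2A, TAC1 and CTNNA2, with bounds from 2563-fold for CTNNA2, a neuronal catenin, to 5741-fold for GNG4, a G protein gamma subunit. In the tubulin family 7 of 15 fell and 3 (1 without Forebrain 1 or Forebrain 2) rose, the latter being TUBA4A at 10.1 and 5.48 CPM in forebrain and 575 and 248 CPM in liver, TUBB1, the platelet beta tubulin, at 1.54 and 1.299 against 213 and 14.6 CPM, and TUBG1, of centrosomes, at 25.04 and 33.4 against 74.5 and 43.7 CPM. TUBB1 did not pass when Forebrain 1 or Forebrain 2 was left out (adjusted p up to 0.0558 by edgeR). TUBG1 did not pass when Forebrain 1, Forebrain 2, Rumen 1 or Rumen 2 was left out or with library totals alone (adjusted p up to 0.218 by edgeR).

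Both excitatory and inhibitory neuron genes were found. Projection neuron genes fell in 17 (10 without Forebrain 2) of 22 cases and rose in 0 (median -3.79 as fitted and -2.999 with undetected genes at their bound), with SLC17A6 at no less than 4504-fold and LMO4, a LIM adaptor, at 195 and 173 CPM in forebrain and 23.2 and 49.6 CPM in liver. Genes of GABA neurons fell in 15 of 21 and rose in 2 (1 without Forebrain 1 or Forebrain 2 and with total counts only) (median -7.96 as fitted and -5.03 with undetected genes at their bound). GAD1, which makes GABA, stood at 383 and 351 CPM in forebrain and 0 and 0 CPM in liver. MEIS2 stood at 298 and 201 CPM in forebrain and 12.9 and 12.01 CPM in liver and SST, somatostatin, at 175 and 268 against 0 and 0.321 CPM. The 2 that rose, SOX6 and FOXP1, at 0.488 and 0.505 CPM in forebrain and 33.2 and 24.8 CPM in liver and at 7.399 and 6.64 against 16.5 and 18.1 CPM, serve red cell precursors and other cells too. Neuropeptide and granin genes fell in 26 of 29 cases (median -8.38 as fitted and -6.70 with undetected genes at their bound). CPE and PCSK1N, which process and regulate the processing of prohormones, stood at 2101 and 2056 CPM in forebrain and 2.31 and 4.303 CPM in liver and at 1052 and 1467 against 5.21 and 6.87 CPM, and SCG5, their secretory granule partner, at 584 and 606 against 0.67000 and 2.18 CPM. TAC1, the precursor of substance P, stood at 367 and 204 CPM in forebrain and 0 and 0 CPM in liver. OXT, or oxytocin, was the 1 (0 without Forebrain 1 or Forebrain 2) that rose, at 14.7 and 12.99 CPM in forebrain and 33.4 and 69.4 CPM in liver, without overlap between the tissues. FOXP1 did not pass when Forebrain 1 or Forebrain 2 was left out or with library totals alone (adjusted p up to 0.115 by edgeR). OXT did not pass when Forebrain 1 or Forebrain 2 was left out (adjusted p up to 0.108 by edgeR).

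Synaptic genes were lower in liver throughout most of the machinery. In the presynaptic list 32 of 38 fell and 3 rose (median -5.73 as fitted and -5.25 with undetected genes at their bound). SNAP25, of the fusion complex, stood at 902 and 775 CPM in forebrain and 5.88 and 12.5 CPM in liver, 90.8-fold lower in liver. SNAP91, of clathrin coats in nerve endings, stood at 589 and 573 CPM in forebrain and 0.0744 and 2.63 CPM in liver. The members that rose were SYNJ1, SYNGR1 and STXBP5, with STXBP5, or tomosyn, at 5.04 and 3.25 CPM in forebrain and 16.9 and 18.6 CPM in liver, SYNJ1, a lipid phosphatase of vesicle recycling, at 4.72 and 2.81 against 39.01 and 19.97 CPM and SYNGR1 at 3.09 and 3.61 against 18.4 and 21.7 CPM. Synaptotagmins, the calcium sensors of release, fell in 8 of 9 cases, led by SYT13, SYT11 and SYT4 at 501 and 435, 439 and 462 and 370.5 and 304 CPM in forebrain, and SYT15 was the 1 (0 without Forebrain 1 or Forebrain 2) that rose. In the postsynaptic list 22 of 29 fell and 2 rose (median -4.38 as fitted and -3.99 with undetected genes at their bound). CAMK2N1, an inhibitor of the calmodulin kinase of synapses, stood at 918 and 842 CPM in forebrain and 4.32 and 6.17 CPM in liver. LSAMP stood at 363 and 308 CPM in forebrain and 1.94 and 5.46 CPM in liver and NRCAM at 263 and 258 against 0.447 and 1.99 CPM, both adhesion proteins of axons. SHANK3 and HOMER2, scaffolds named for the synapse, rose in liver, at 13.6 and 12.8 CPM in forebrain and 78.2 and 77.4 CPM in liver and at 2.03 and 3.32 against 19.6 and 42.7 CPM. Their liver values lay above both forebrain values, by 5.89-fold and 11.6-fold. STXBP5 did not pass when Forebrain 2 was left out (adjusted p 0.0849 by edgeR). SYT15 did not pass when Forebrain 1 or Forebrain 2 was left out (adjusted p up to 0.101 by edgeR).

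Transmitter receptors fell in 26 (17 without Forebrain 1) of 29 tested cases and rose in 0 (median -8.78 as fitted and -6.16 with undetected genes at their bound). GRIA2, the AMPA receptor subunit that limits calcium entry, stood at 454 and 377 CPM in forebrain and 0 and 0 CPM in liver. GABBR1, of the metabotropic GABA receptor, stood at 377 and 401 CPM in forebrain and 0.819 and 7.32 CPM in liver. GRM3, a metabotropic glutamate receptor, stood at 222 and 158 CPM in forebrain and 0.372 and 0.578 CPM in liver. No liver library reached the forebrain range for any of them. Voltage-gated channels fell in 23 (13 without Forebrain 1, 15 without Forebrain 2) of 32 and rose in 0 (1 without Liver 1 or Liver 2) (median -4.45 as fitted and -4.27 with undetected genes at their bound), with CACNA2D1, a calcium channel subunit, at 355 and 362 CPM in forebrain and 3.201 and 3.15 CPM in liver, SCN2A, the sodium channel of young axons, at 335 and 275 against 0 and 0 CPM and CACNB3 at 109 and 117 against 5.06 and 9.12 CPM. HCN3, a pacemaker channel, stood at 1.301 and 1.52 CPM in forebrain and 0.0744 and 90.7 CPM in liver, and a single liver library thus held nearly all of its counts. Over all potassium channel genes 28 (16 without Forebrain 1, 18 without Forebrain 2) of 48 fell and 6 (2 without Forebrain 2, 3 without Forebrain 1) rose. KCNIP4, KCNMB4 and KCNIP1, auxiliary subunits, stood at 70.3 and 54.1, 42.3 and 46.3 and 46.3 and 41.6 CPM in forebrain, while KCNN4, the calcium-activated channel of red and white blood cells, rose from 6.26 and 2.96 to 62.3 and 81.3 CPM, with KCNK5 at 27.3 and 49.8 and KCNK17 at 15.3 and 34.3 CPM in liver. KCNN4 did not pass when Forebrain 2 was left out (adjusted p 0.0675 by edgeR).

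Guidance and adhesion genes were divided between the tissues. In the axon guidance list 17 of 35 fell and 7 (3 without Forebrain 1 or Forebrain 2) rose (median -1.89). ROBO1, a SLIT receptor, stood at 219 and 169.7 CPM in forebrain and 47.6 and 57.03 CPM in liver. EFNB3, an ephrin of the midline, stood at 145 and 146 CPM in forebrain and 0.819 and 0.899 CPM in liver, and EPHB1, an ephrin receptor, at 151 and 123 against 0 and 0 CPM. ROBO4, the ROBO of vessels, stood at 12.4 and 15.7 CPM in forebrain and 36.8 and 97.2 CPM in liver. EFNA1 stood at 10.2 and 10.5 CPM in forebrain and 45.9 and 123 CPM in liver and EFNA4 at 3.74 and 2.74 against 17.8 and 34.9 CPM, all above forebrain. Across all ephrins and EPH receptors 10 of 17 fell and 6 rose. EPHB2 went with EPHB1, at 93.2 and 90.9 CPM in forebrain and 15.8 and 5.91 CPM in liver, while EPHB4, of veins, at 2.93 and 2.02 against 52.6 and 47.9 CPM, and EPHA2, of epithelia, at 4.39 and 4.402 against 26.6 and 43.9 CPM, went the other way. Classical cadherins fell in 11 of 19 cases and rose in 3. CDH13, CDH8 and CDH10 stood at 279 and 226, 82.2 and 78.3 and 52.2 and 51.4 CPM in forebrain and at most 7.58 CPM in liver. The 3 that rose were epithelial, CDH16 at 0.0813 and 0 CPM in forebrain and 116 and 257 CPM in liver, CDH17 at 0 and 0.289 against 10.2 and 53.7 CPM and CDH1, or E-cadherin, at 0.0813 and 0 against 12.6 and 1.73 CPM. CDH2, or N-cadherin, stood at 268 and 297 CPM in forebrain and 124 and 201 CPM in liver and did not pass. ROBO4 did not pass when Forebrain 1 or Forebrain 2 was left out (adjusted p up to 0.0709 by edgeR). CDH1 did not pass when Forebrain 2 was left out (adjusted p 0.0504 by edgeR).

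RNA-binding and chromatin genes went both ways. In the list of neuronal RNA-binding proteins and splicing factors 11 of 28 fell and 7 (4 without Forebrain 2) rose. NOVA1, a splicing factor of neurons, stood at 538 and 436 CPM in forebrain and 0.744 and 6.62 CPM in liver. ELAVL4, or HuD, which stabilises neuronal transcripts, stood at 344 and 318 CPM in forebrain and 0 and 0 CPM in liver, and KHDRBS3 at 224 and 235 against 4.54 and 3.47 CPM. PTBP1, which represses neuronal exons, stood at 44.3 and 39.5 CPM in forebrain and 429 and 328 CPM in liver, 9.03-fold higher in liver, and ESRP2, the splicing factor of epithelia, at 0.244 and 0.433 against 52.9 and 167 CPM. FXR1 rose as well, at 78.1 and 65.9 CPM in forebrain and 132 and 120.4 CPM in liver. In the chromatin list 15 (7 without Forebrain 2, 8 without Forebrain 1) of 43 rose and 10 fell. Both shares were near those over all tested genes, 29.4% higher and 25.9% lower. SMARCA1, an ISWI remodeller, stood at 187 and 219.7 CPM in forebrain and 914 and 1407 CPM in liver. EZH2, the Polycomb methylase of dividing cells, stood at 24.3 and 16.8 CPM in forebrain and 135 and 373 CPM in liver, and HDAC1, a histone deacetylase, at 22.9 and 23.7 against 189 and 161 CPM. Its close relative HDAC2 went the other way, at 379 and 380.3 CPM in forebrain and 84.4 and 48.5 CPM in liver, with SMARCD3 and SMARCE1, subunits of BAF complexes, at 327 and 375 against 8.11 and 15.4 CPM and at 197 and 224 against 108 and 92.2 CPM. ACTL6B, the actin-like subunit of neuronal BAF, stood at 74.5 and 86.2 CPM in forebrain and 1.41 and 4.43 CPM in liver, whereas ACTL6A, its form in other cells, stood at 15.4 and 14.2 against 24.9 and 16.8 CPM and did not pass. The ZNF genes that follow fell in a share close to the 25.9% over all tested genes. The share of them that rose was below the 29.4% over all tested genes. Zinc finger genes of the ZNF series fell in 46 (26 without Forebrain 1, 29 without Forebrain 2) of 163 cases and rose in 15 (5 without Forebrain 2, 7 without Forebrain 1, 26 without Liver 2, 32 without Liver 1), with ZNF428, ZNF414 and ZNF484 at 455 and 601, 243 and 344 and 227 and 195 CPM in forebrain, and ZNF692 at 21.9 and 19.3 CPM in forebrain and 37.5 and 343 CPM in liver, ZNF384 at 30.6 and 27.4 against 64.8 and 84.7 CPM and ZNF74 at 19.5 and 15.9 against 37.3 and 95.9 CPM. RAB GTPases, which route vesicles, fell in 27 (15 without Forebrain 1, 16 without Forebrain 2) of 52 and rose in 10 (4 without Forebrain 1 or Forebrain 2). RAB6A, of the Golgi, stood at 666 and 599.9 CPM in forebrain and 99.7 and 66.2 CPM in liver. RAB2A stood at 493 and 520.3 CPM in forebrain and 96.9 and 130.4 CPM in liver and RAB11B, of recycling endosomes, at 313 and 406 against 114 and 118 CPM. RAB8A stood at 30.7 and 39.04 CPM in forebrain and 218 and 123 CPM in liver. RAB1B stood at 54.4 and 69.4 CPM in forebrain and 149 and 97.5 CPM in liver and RAB32 at 6.02 and 4.47 against 61.4 and 52.1 CPM. FXR1 and RAB1B did not pass when Forebrain 1, Forebrain 2, Rumen 1 or Rumen 2 was left out or with library totals alone (adjusted p up to 0.262, for FXR1, by edgeR). SMARCE1 and ZNF384 did not pass when Forebrain 2 was left out (adjusted p up to 0.0632, for SMARCE1, by edgeR). ZNF692 did not pass when Forebrain 1, Forebrain 2, Rumen 1 or Rumen 2 was left out (adjusted p up to 0.139 by edgeR). ZNF74 did not pass when Forebrain 1 or Forebrain 2 was left out (adjusted p up to 0.0925 by edgeR).

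Solute carrier families held members that rose and members that fell. Among SLC22 organic ion carriers 8 (3 without Forebrain 2, 4 without Forebrain 1) of 11 rose, led by SLC22A7 at 0 and 0 CPM in forebrain and 252 and 989 CPM in liver, SLC22A18 at 1.301 and 1.23 against 137 and 210.2 CPM and SLC22A9 at 0 and 0 against 22.2 and 59.99 CPM. SLC22A17, a receptor-like member of brain, was the 1 that fell, at 311 and 345 CPM in forebrain and 13.8 and 18.9 CPM in liver. In the SLC1 family the glial glutamate carrier SLC1A3 stood at 230.1 and 394 CPM in forebrain and 0.893 and 1.99 CPM in liver and SLC1A6, a glutamate carrier of neurons, at 119 and 114 against 0 and 0 CPM. SLC1A4 and SLC1A1 fell too, and SLC1A5, the glutamine carrier of dividing cells, was the 1 that rose, at 6.91 and 6.86 CPM in forebrain and 478 and 337 CPM in liver. Sugar carriers of the SLC2 family rose in 4 and fell in 4 (2 without Forebrain 1 or Forebrain 2) of 11 cases, beside 29.4% higher and 25.9% lower over all tested genes. SLC2A1, SLC2A2, SLC2A4 and SLC2A10 rose, and SLC2A5, SLC2A6, SLC2A11 and SLC2A12 fell, with SLC2A11 at 71.6 and 51.02 CPM in forebrain and 0.298 and 0 CPM in liver. Transmitter carriers of the SLC6 family rose in 4 (2 without Forebrain 1 or Forebrain 2) and fell in 5 (2 without Forebrain 1 or Forebrain 2) of 12. The share of SLC6 carriers that rose was near the 29.4% over all tested genes. Those that fell included SLC6A15, SLC6A17, SLC6A7 and SLC6A13, with SLC6A15, an amino acid carrier of neurons, at 36.5 and 31.4 CPM in forebrain and 0 and 0 CPM in liver. SLC6A4, the serotonin carrier that platelets also use, stood at 1.301 and 1.01 CPM in forebrain and 58.96 and 27.4 CPM in liver. SLC6A9, a glycine carrier of red cell precursors and glia, stood at 27.8 and 30.96 CPM in forebrain and 99.5 and 173 CPM in liver, and SLC6A11 and SLC6A8 rose as well, with SLC6A11, a GABA carrier, at 28.5 and 36.7 against 129.8 and 125 CPM. Mitochondrial SLC25 carriers rose in 15 (6 without Forebrain 1, 7 without Forebrain 2, 8 with total counts only) and fell in 4 (7 without Liver 1 or Liver 2, 8 with total counts only) of 36. SLC25A39, a glutathione carrier, stood at 87.2 and 97.1 CPM in forebrain and 1107 and 785 CPM in liver and SLC25A3, the phosphate carrier, at 113 and 113 against 163 and 194 CPM. SLC25A4, SLC25A11, SLC25A12 and SLC25A14 fell, with SLC25A12, the aspartate-glutamate carrier of brain, at 102 and 94.3 CPM in forebrain and 8.64 and 8.99 CPM in liver. SLC1A1 did not pass when Forebrain 1 was left out (adjusted p 0.0553 by edgeR). SLC2A10 and SLC2A5 did not pass when Forebrain 1, Forebrain 2 or Liver 1 was left out (adjusted p up to 0.218, for SLC2A5, by edgeR). SLC2A12 did not pass when Forebrain 1, Forebrain 2, Liver 1, Rumen 1 or Rumen 2 was left out (adjusted p up to 0.169 by edgeR). SLC6A17, SLC6A7, SLC6A13, SLC6A11, SLC6A8 and SLC25A11 did not pass when Forebrain 1 or Forebrain 2 was left out (adjusted p up to 0.147, for SLC25A11, by edgeR). SLC25A3 did not pass when Forebrain 1, Forebrain 2, Rumen 1 or Rumen 2 was left out or with library totals alone (adjusted p up to 0.535 by edgeR).

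Several enzymes come as a liver form and a form of other tissues, and each form can be compared across the tissues on its own. Pyruvate kinase PKLR stood at 13.5 and 9.67 CPM in forebrain and 742 and 809 CPM in liver and PKM at 316 and 332 against 72.5 and 39.1 CPM. Aldolase C, ALDOC, stood at 444 and 449.9 CPM in forebrain and 25.01 and 14.9 CPM in liver, lower in both liver libraries, as was PKM. Methionine adenosyltransferase MAT1A rose while MAT2A, at 292 and 237 CPM in forebrain and 259.8 and 238 CPM in liver, did not pass. Glycogen phosphorylase PYGL stood at 33.5 and 22.9 CPM in forebrain and 78.5 and 53.8 CPM in liver, opposite to PYGB, and glycogen synthase GYS2 at 0.325 and 0.722 against 73.3 and 106 CPM with GYS1 at 9.35 and 10.5 against 16.3 and 27.6 CPM, which both rose. Enolase ENO2, the neuronal form, stood at 397 and 381 CPM in forebrain and 0.0744 and 0.4496 CPM in liver, and ENO3 at 3.903 and 7.29 against 9.83 and 13.9 CPM did not pass. Stearoyl-CoA desaturase SCD5 stood at 313 and 346 CPM in forebrain and 18.7 and 27.6 CPM in liver, while SCD stood at 239.9 and 283 against 305 and 632 CPM and did not pass. Carnitine palmitoyltransferase CPT1A rose, at 11.2 and 12.99 CPM in forebrain and 57.3 and 68.1 CPM in liver, as did fructose bisphosphatase FBP1 at 12.4 and 5.85 against 36.5 and 26.9 CPM and phosphofructokinase PFKL at 85.2 and 92.2 against 324 and 161 CPM. Acetyl-CoA carboxylase ACACA rose, at 11.8 and 7.87 CPM in forebrain and 34.5 and 24.02 CPM in liver, and ACACB, at 1.79 and 1.804 against 0.447 and 0.835 CPM, did not pass. Arginase ARG1 stood at 2.195 and 2.67 CPM in forebrain and 120.3 and 177 CPM in liver, and ARG2 at 34.9 and 49.2 against 161 and 9.51 CPM. The ARG2 values of liver lie on both sides of the forebrain values, and the same holds for SLC2A3, a glucose carrier, at 61.6 and 74.8 CPM in forebrain and 154 and 30.96 CPM in liver, and PFKP, another phosphofructokinase, at 50.7 and 43.3 against 73.6 and 24.3 CPM. None of these passed, nor did HK1, a hexokinase, at 172 and 162 CPM in forebrain and 306 and 163 CPM in liver. Without Liver 1 the fitted log2 fold change of ARG2 was -2.15, of SLC2A3 -1.14 and of PFKP -0.95. Without Liver 2 it was 1.93, 1.17 and 0.64, so for ARG2, SLC2A3 and PFKP the direction is set by which liver library is used. ALAS1, the general form of the haem enzyme, stood at 36.7 and 43.4 CPM in forebrain and 49.8 and 36.7 CPM in liver and did not pass, whereas GLS2, the glutaminase of liver, at 11.1 and 9.45 against 20.2 and 53.1 CPM, rose. PTBP2, the neuronal relative of PTBP1, stood at 7.89 and 5.12 CPM in forebrain and 3.797 and 2.12 CPM in liver and did not pass. PYGL and ACACA did not pass when Forebrain 1 or Forebrain 2 was left out or with library totals alone (adjusted p up to 0.154, for ACACA, by edgeR). PYGB and PFKL did not pass when Forebrain 1 or Forebrain 2 was left out (adjusted p up to 0.0997, for PFKL, by edgeR). GYS1 did not pass when Forebrain 1, Forebrain 2, Rumen 1 or Rumen 2 was left out or with library totals alone (adjusted p up to 0.1499 by edgeR). FBP1 did not pass when Forebrain 2 was left out or with library totals alone (adjusted p up to 0.167 by edgeR). GLS2 did not pass when Forebrain 1, Forebrain 2 or Liver 2 was left out or with library totals alone (adjusted p up to 0.155 by edgeR).

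Stress genes were uneven. In the list of hypoxia, stress and immediate early genes 16 (9 without Forebrain 1) of 38 rose and 7 (3 without Forebrain 2, 4 without Forebrain 1, 11 without Liver 2) fell (median 1.03). HSPA1A, the inducible heat shock protein, stood at 219 and 302 CPM in forebrain and 1431 and 3971 CPM in liver, and the metallothioneins MT1E and MT2A, which bind zinc and copper, at 2.195 and 3.103 against 1021 and 900.2 CPM and at 16.6 and 14.9 against 719.7 and 903 CPM. HSPA8, the constitutive heat shock protein, stood at 3712 and 3457 CPM in forebrain and 1300.5 and 1674 CPM in liver. MT3, the metallothionein of brain, stood at 217 and 293 CPM in forebrain and 12.7 and 0.835 CPM in liver, and JUND at 224 and 283 against 129.8 and 115 CPM. Liver 2 held 2.78 times the HSPA1A of Liver 1, and FOS, an early response gene, stood at 18.6 and 27.1 CPM in forebrain and 6.48 and 28.2 CPM in liver with overlap. Metallothionein and heat shock genes have near copies, so their counts are uncertain in the same way as those of globins. JUND did not pass when Forebrain 2 was left out (adjusted p 0.0811 by edgeR).

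The liver libraries were set against each other list by list, over members with at least 10 CPM in a liver library and with no test, since each side is 1 library. Against a median log2 ratio of Liver 2 to Liver 1 of 0.0041 over all 8041 genes, blood lists leaned to Liver 1. The median was -1.66 over 12 megakaryocyte genes, -1.48 over 9 granulocyte genes, -0.97 over 6 globin genes and -0.79 over 19 macrophage genes. Of the megakaryocyte genes 8 were at least 2-fold higher in Liver 1 and 1 in Liver 2, beside the 14.1% and 14.7% over all genes. The lean was weaker in erythroid genes, at -0.40 over 24, of which 7 were at least 2-fold higher in Liver 1 and 1 in Liver 2, and in replication genes, at -0.33 over 42. Some lists of general cell genes, chosen here after their values were seen, leaned the same way. The median was -0.90 over 9 tubulins, -0.81 over 15 zinc carriers, -0.57 over 44 proteasome genes and -0.43 over 41 initiation factors. Of the proteasome genes 9 were at least 2-fold higher in Liver 1 and 1 in Liver 2, beside the same 14.1% and 14.7% over all genes. Haem synthesis genes did not follow the globins, at 0.28 over 14. CPOX, coproporphyrinogen oxidase, stood at 407 and 42.1 CPM, UROS, uroporphyrinogen synthase, at 229 and 1244 CPM, and FECH, which inserts the iron, at 852 and 272 CPM. Within 1 pathway, then, CPOX and FECH were higher in Liver 1 while UROS was higher in Liver 2.

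Hepatocyte lists leaned to Liver 2 or were balanced, and some lists outside the hepatocyte, given below, leaned to Liver 2 as well. The median log2 ratio was 0.80 over 29 sterol and fatty acid synthesis genes, 0.55 over 15 bile acid genes, 0.53 over 24 detoxification genes, 0.52 over 17 hepatocyte factors and 0.46 over 21 coagulation genes. It was 0.07 over 30 plasma carriers and -0.05 over 18 apolipoprotein genes. The plasma carriers spread widely around that value. AGT, angiotensinogen, stood at 799 and 60.1 CPM and was 13.3 times higher in Liver 1, while ORM1, an acid glycoprotein, stood at 1895 and 7998 CPM and was 4.22 times higher in Liver 2. Imprinted genes had a median of 0.58 over 20, with 4 at least 2-fold higher in Liver 2 and 0 in Liver 1, beside 14.7% and 14.1% over all genes. MEG3 was 15.1 times higher in Liver 2, the largest ratio in favour of Liver 2 among genes with at least 100 CPM in a liver library. Other lists, chosen here after their values were seen, leaned to Liver 2 too, as some general lists had to Liver 1. The median was 0.90 over 10 potassium channels, 0.80 over 12 axon guidance genes and 0.40 over 95 ZNF genes. Of the ZNF genes 25 were at least 2-fold higher in Liver 2 and 10 in Liver 1.

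The 10 genes of at least 100 CPM that most favoured Liver 1 included TFRC, ARG2, TUBB1, EIF4H, CDK5R1, AGT, SLC25A15, ITGB1 and CPOX, from 18.5 times for TFRC to 9.67 times for CPOX. They mix red cell and platelet genes with genes that most cells use, such as ITGB1, an integrin chain, at 245 and 24.98 CPM and EIF4H, an initiation factor, at 202 and 14.002 CPM. The 10 that most favoured Liver 2 were MEG3, BAIAP2L2, DNASE1, ARHGEF16, DQX1, DUSP26, PAOX, LGALS4, FTCD and ZNF692, down to 9.14 times for ZNF692. Among them FTCD and PAOX, a polyamine oxidase, are metabolic enzymes, at 93.4 and 857 and 11.2 and 123 CPM, and DUSP26, a phosphatase, had 119.6 and 142 CPM in forebrain, inside the span of its liver values of 27.5 and 306 CPM. Both liver libraries were on the same side of forebrain for every plasma carrier, erythroid factor and neuronal cytoskeleton gene named above that passed. Most of these were named because they had passed, so this follows largely from the choice. Over all genes, both liver values lay above both forebrain values for 4858 and below for 4597, of 12693 with counts in either tissue. The summed erythroid markers, 147121 CPM in Liver 1 and 56886 CPM in Liver 2, moved with these ratios more than the hepatocyte markers did, and their part was not tested.

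**Figure D5:**
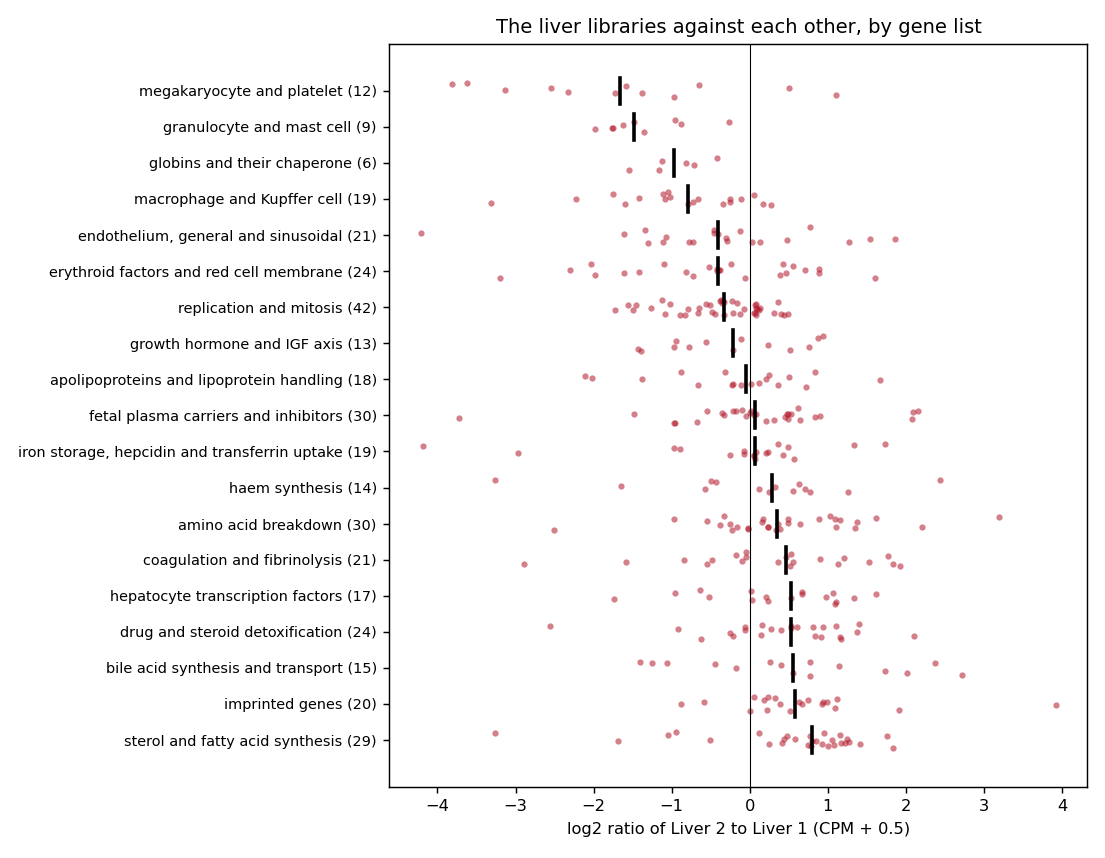
The log2 ratio of Liver 2 to Liver 1 after adding 0.5 CPM (horizontal axis) for each member with at least 10 CPM in a liver library (points), by gene list (vertical axis, number of members in brackets), with the list's median as a black bar. Megakaryocyte, granulocyte and globin medians lie left of 0, sterol and bile acid medians lie right of 0, and single members reach beyond 3 in both directions.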

How the data were processed

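RNA-seq libraries of fetal bovine liver, forebrain and rumen were deposited as 1 table of whole-number counts per gene. The submitters' processing notes name HISAT2 2.0.5, featureCounts 1.5.0-p3 and edgeR 3.18.1. Neither genome build nor strand setting is given in the sources used here. Column names gave each library's tissue and number, and 0 value columns were left unmatched. Members, gene lists and rules were chosen with earlier results of these data known.

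The deposited counts were fitted with edgeR 4.0.16 in R 4.3.3 (filterByExpr, TMM, quasi-likelihood test of liver against forebrain over all 6 libraries, 3 residual degrees of freedom, Benjamini-Hochberg adjustment over 11478 genes, threshold 0.05), and the scripts were tested on simulated data. Alternatives used limma 3.58.1, DESeq2 1.42.0, other scalings and fits without 1 library.

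Genes were named by rules. These took the 12 largest fitted changes each way at 50 CPM or more, the 8 highest levels each way past a log2 change of 2, the 3 highest of each list each way (all, where 5 or fewer), and the 10 most unequal genes of the liver pair each way at 100 CPM or more. Pairs of enzyme forms and the defining cell markers were named as well. Other genes named were chosen after their values were seen. Some genes that these rules pick are not reported here, and sequences were not used here.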

Additional observations from a re-analysis of the deposited data

How the results depend on the processing

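Of 389 tested genes picked by the rules and reported here, 376 passed. The rules behind them, except that for pairs of enzyme forms, took only genes that had already passed. This share therefore follows from the choice and says nothing about genes at large. Genes picked only as unequal in the liver pair or as cell markers are not among the 389. None of these 376 changed direction under any alternative run, and 288 to 373 passed the same way. Genes higher in liver numbered 1877 to 4127 and genes lower 1764 to 3810 when each library was left out in turn, with the lowest counts without a forebrain library and the highest without a liver library. Without a liver library, the spread between the liver libraries, wider than that of the forebrain pair, does not enter the fit. DESeq2 gave 3503 and 3343, limma with weights 3136 and 2355, a test against a log2 change of 1 gave 2329 and 1985, and liver and forebrain alone 2820 and 2690. Lists with more members higher than lower numbered 41 to 46 and lists with more lower 29 to 32 over these settings. Ratios between the liver libraries taken on library totals, an alternative chosen after seeing the data, put 1214 genes at least 2-fold higher in Liver 2 and 985 in Liver 1.

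The replicate number was not taken as pairing the libraries. The deviations of Forebrain 1 and Liver 1 from their tissue means correlated at 0.079 over 11478 genes, and a fit with the replicate block gave 3055 higher and 2712 lower.

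The fitted sign turned only in genes that had not passed, and the cause was not tested. With library totals alone the log2 fold change was -0.0040 for ACTL6A, -0.38 for ALAS1, -0.0094 for HK1, -0.45 for PFKP and -0.069 for SLC2A3. Without Liver 1 it was -0.13 for ALAS1, -2.15 for ARG2, -0.034 for HK1, -0.95 for PFKP and -1.14 for SLC2A3, and without Liver 2 it was 0.31, 1.93, 0.87, 0.64 and 1.17 for the same genes in this order. Without Forebrain 1 it was -0.011 for ALAS1 and 0.069 for MAT2A, and without Forebrain 2 it was -0.22 for MAT2A. With limma it was -0.17 for ARG2, -0.17 for PFKP and -0.0086 for SLC2A3. PFKP also stood at -0.032 with DESeq2, with RLE scaling and without globins and plasma carriers in the scaling, at -0.088 with the replicate block, at -0.011 in liver and forebrain alone and at -0.046 without Forebrain 2. At this depth, 3 counts amount to 0.115 CPM over the forebrain pair and 0.103 CPM over the liver pair, which limits any fold for a gene without counts.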

Other observations

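Some genes of endocrine glands were found in liver, chosen here after their values were seen. CYP11A1, which opens steroid synthesis, stood at 0.0813 and 0.505 CPM in forebrain and 17.6 and 37.1 CPM in liver. NR5A1, a factor of adrenal and gonad, stood at 0 and 0 CPM in forebrain and 10.9 and 3.28 CPM in liver, and HSD3B1, a steroid dehydrogenase, at 0.407 and 0.0722 against 40.9 and 17.8 CPM. CYP17A1, the next adrenal enzyme, had 0.0744 and 0.4496 CPM in liver, and CYP21A2 and CYP11B1, which complete cortisol synthesis, had no liver count. Outside that group, CHIA, an acidic chitinase, stood at 0 and 0 CPM in forebrain and 253 and 365 CPM in liver.

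The catecholamine enzymes TH and DDC were higher in liver than in forebrain, at 2.85 and 3.61 CPM in forebrain and 9.08 and 24.9 CPM in liver and at 6.99 and 14.7 against 32.8 and 63.2 CPM. POMC, the precursor of ACTH, stood at 44.5 and 51.8 CPM in forebrain and 9.83 and 9.83 CPM in liver. TH did not pass when Forebrain 1 or Forebrain 2 was left out (adjusted p up to 0.07403 by edgeR). DDC did not pass when Forebrain 1 was left out (adjusted p 0.08597 by edgeR).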
